A study of Homo sapiens with 15 samples.

Results

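HK1, HK2, EPAS1 and STC2 are 4 genes of sugar phosphorylation, hypoxia signalling and stress secretion that were followed in Caco-2 cells, an established line from a human colon tumour whose confluent layers come to resemble the enterocytes of the small intestine. They were taken by gene symbol, 1 probe set each, out of 14884 symbols on the array, and all 4 were among the 11804 genes kept for testing. The 4 were chosen by their higher log2 values in LPS than in control, so every LPS against control value of them below is a description without a test. The 15 arrays were 5 each of LPS+RSV, LPS and control. LPS+RSV cells received 50 µM trans-resveratrol (RSV, a plant polyphenol) for 1 h and then E. coli K12 lipopolysaccharide (LPS, bacterial endotoxin) at 1 µg/mL for 48 h. LPS cells received the endotoxin without resveratrol, and control cells were untreated. All cells were used between 15 and 19 days after seeding. The labels do not say whether LPS or control cells received the ethanol that carried resveratrol, nor whether replicates were separate cultures. Every p-value below therefore rests on the spread among these arrays, which may be technical.

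Hexokinases trap glucose in the cell by converting it to glucose 6-phosphate, the common entry to glycolysis, glycogen and the pentose phosphate pathway. HK1 is the widely expressed form and HK2 is a more inducible form of insulin-responsive and tumour tissue; both can sit on the outer mitochondrial membrane. EPAS1 encodes HIF-2α, an oxygen-regulated subunit of the hypoxia-inducible factors, which pairs with ARNT and in the intestine controls iron absorption genes. Its activity is set largely by protein stability, which an expression array does not see. STC2 encodes stanniocalcin 2, a secreted glycoprotein that is induced by ATF4 during endoplasmic reticulum stress and amino acid shortage and that inhibits the protease PAPP-A, which frees insulin-like growth factors. HK2 is a textbook target of hypoxia-inducible factors and of MYC.

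Upstream sequences are shown because these 4 genes varied together between arrays of the same group, as described below, and because hypoxia-inducible factors and MYC are known regulators of HK2. Each is the 250 bases before a RefSeq transcript start in GRCh38.p14, written 5′ to 3′ on the gene's own strand. Capitals mark ACGTG or GCGTG, the core letters of hypoxia response elements, CACGTG, the E-box letters, which contain ACGTG on both strands, and TGATGNAAN, the letters of the ATF4 composite element, each searched on both strands. The first HK2 sequence lies before the gene's first start (chr2:74833877-74834126, + strand), and the second before a later start inside the gene (chr2:74834920-74835169, + strand).
HK2 first start: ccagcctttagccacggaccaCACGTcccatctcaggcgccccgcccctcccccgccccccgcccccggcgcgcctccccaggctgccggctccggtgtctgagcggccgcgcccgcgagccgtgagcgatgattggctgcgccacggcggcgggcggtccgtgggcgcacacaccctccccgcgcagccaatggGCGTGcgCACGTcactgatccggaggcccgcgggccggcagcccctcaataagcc
HK2 later start: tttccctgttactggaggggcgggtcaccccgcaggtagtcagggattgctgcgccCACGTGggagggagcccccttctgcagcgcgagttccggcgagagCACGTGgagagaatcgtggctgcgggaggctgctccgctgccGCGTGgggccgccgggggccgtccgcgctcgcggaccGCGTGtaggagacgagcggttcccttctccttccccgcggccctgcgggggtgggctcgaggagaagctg
EPAS1: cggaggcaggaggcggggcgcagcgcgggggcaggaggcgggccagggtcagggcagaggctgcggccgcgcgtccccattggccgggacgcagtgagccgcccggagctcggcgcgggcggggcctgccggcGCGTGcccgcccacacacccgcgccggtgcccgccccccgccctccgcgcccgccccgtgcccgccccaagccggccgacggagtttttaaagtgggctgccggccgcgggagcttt
STC2: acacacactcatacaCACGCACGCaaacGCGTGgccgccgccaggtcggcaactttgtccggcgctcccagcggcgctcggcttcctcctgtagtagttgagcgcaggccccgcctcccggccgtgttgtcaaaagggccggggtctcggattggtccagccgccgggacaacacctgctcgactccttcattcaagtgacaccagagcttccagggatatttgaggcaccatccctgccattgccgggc
HK1 first start: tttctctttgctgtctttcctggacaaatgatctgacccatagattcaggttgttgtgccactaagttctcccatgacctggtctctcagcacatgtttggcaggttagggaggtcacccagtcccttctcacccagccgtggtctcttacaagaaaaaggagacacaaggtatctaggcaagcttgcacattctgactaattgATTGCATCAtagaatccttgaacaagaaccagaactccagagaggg
EPAS1 is at chr2:46297157-46297406 (+ strand), STC2 at chr5:173328415-173328664 (- strand) and the HK1 sequence at chr10:69269750-69269999 (+ strand). The later HK2 window held 4 matches to ACGTG on the 2 strands together, all within its 2 copies of CACGTG, and 2 matches to GCGTG. The first HK2 window held 2 matches to ACGTG and 1 to GCGTG. EPAS1 held 1 match to GCGTG and STC2 held 3, and neither held any of the other motifs. For HK1, 7 windows were listed and only the first is printed. None held ACGTG or CACGTG, and the 2 overlapping windows at the first start held 1 match to TGATGNAAN. The 1 window with GCGTG, before a later start (chr10:69318814-69319063, + strand), had no match to TGATGNAAN. Which start gave the measured RNA was not determined. Of 35116 windows of the same length in the table, 18.5% held ACGTG, 32.2% GCGTG, 6.34% CACGTG and 3.13% TGATGNAAN. The matches are descriptions of letters, and no binding was measured.

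Across the 11804 genes the arrays correlated with each other at means between 0.946 and 0.984, with LPS+RSV replicate 1 the lowest. Results are given with and without LPS replicates 1 and 2, which stood apart in an earlier analysis of these data. In these mean correlations they did not stand apart, at 0.978 and 0.976, within the range of the other LPS arrays. A score of 22 cell cycle genes, as the mean log2 deviation from each gene's average, lay between -0.93 and 0.46 in LPS+RSV, between -0.03 and 1.04 in LPS and between -1.09 and 0.48 in control. Of these cell cycle genes 22 of 22 had a lower mean in LPS+RSV than in LPS (median log2 difference -0.73) and 22 of 22 higher in LPS than in control (median 0.62), with 0 called by limma in either; 15 had an unadjusted p under 0.05 in LPS+RSV against LPS, where 18.6% of all genes had one, and 7 in LPS against control, where 7.88% had one. Enterocyte markers were present, with sucrase-isomaltase (SI) at 12.10 ± 0.28 in LPS+RSV, 11.80 ± 0.28 in LPS and 12.23 ± 0.38 in control, and the microvillus protein gene VIL1 at 11.04 ± 0.20 in LPS+RSV, 10.87 ± 0.13 in LPS and 10.94 ± 0.17 in control (log2, mean ± SD, n = 5 arrays each). KRT20, a differentiation keratin gene of the intestinal epithelium, was at 5.77 ± 0.41 in LPS+RSV, 6.80 ± 0.94 in LPS and 5.63 ± 0.27 in control (SD, n = 5 each), and its LPS minus control difference was 1.16 ± 0.34 with all arrays and 0.50 ± 0.22 without LPS replicates 1 and 2 (log2, SE). Of 6 fibroblast, endothelial and immune markers, only PECAM1 had a probe set named here, between 5.36 and 6.07 over all arrays. The 15 array medians lay between 5.49 and 5.54.

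All 4 genes had their highest group mean in LPS and their lowest in control, with LPS+RSV between. EPAS1 was 1.46-fold and STC2 1.40-fold higher in LPS than in control, and in LPS+RSV each lay nearer to control than to LPS. HK2 and HK1 were 1.32-fold and 1.28-fold higher in LPS than in control, and lay between the other groups in LPS+RSV. None of these 4 genes passed the test in LPS+RSV against LPS or in LPS+RSV against control.

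HK1, on log2 units throughout, read 7.05, 6.63, 6.55, 6.72 and 6.73 in LPS+RSV replicates 1 to 5. In LPS replicates 1 to 5 it read 7.02, 6.89, 7.03, 6.71 and 6.75. In control replicates 1 to 5 it read 6.63, 6.61, 6.15, 6.71 and 6.54. LPS+RSV replicate 1 was above every other array and control replicate 3 was below every other array. The groups overlapped in each pairing, and LPS replicate 4 and control replicate 4 had the same value. Means were 6.74 ± 0.19 in LPS+RSV, 6.88 ± 0.15 in LPS and 6.53 ± 0.22 in control (SD, n = 5 each).

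HK2 read 7.31, 6.83, 6.77, 7.18 and 7.08 in LPS+RSV replicates 1 to 5. In LPS it read 7.37, 7.47, 7.22, 7.07 and 7.07, and in control 6.83, 6.83, 6.56, 7.05 and 6.91. Every LPS array was above every control array, but the lowest LPS array was above the highest control array by a narrow margin, and LPS+RSV spanned most of both ranges. Means were 7.03 ± 0.23 in LPS+RSV, 7.24 ± 0.18 in LPS and 6.84 ± 0.18 in control (SD, n = 5 each).

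EPAS1 read 7.89, 7.49, 7.25, 7.44 and 7.52 in LPS+RSV replicates 1 to 5. In LPS it read 8.29, 8.37, 7.79, 7.74 and 7.85, and in control 7.45, 7.48, 7.30, 7.46 and 7.63. LPS replicates 1 and 2 were well above the other 3 LPS arrays, which lay close together and still above all control arrays. In LPS+RSV only replicate 1 reached the LPS range, and the other 4 arrays lay within or just below the control range. Means were 7.52 ± 0.23 in LPS+RSV, 8.01 ± 0.30 in LPS and 7.46 ± 0.12 in control (SD, n = 5 each).

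STC2 read 9.23, 8.94, 8.69, 8.97 and 8.89 in LPS+RSV replicates 1 to 5. In LPS it read 9.39, 9.55, 9.17, 9.13 and 9.19, and in control 8.81, 8.75, 8.60, 9.00 and 8.86. As with EPAS1, every LPS array was above every control array, replicates 1 and 2 were the highest in LPS, and only replicate 1 of LPS+RSV reached the LPS range. Means were 8.95 ± 0.20 in LPS+RSV, 9.29 ± 0.18 in LPS and 8.80 ± 0.15 in control (SD, n = 5 each).

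**Figure D1:**
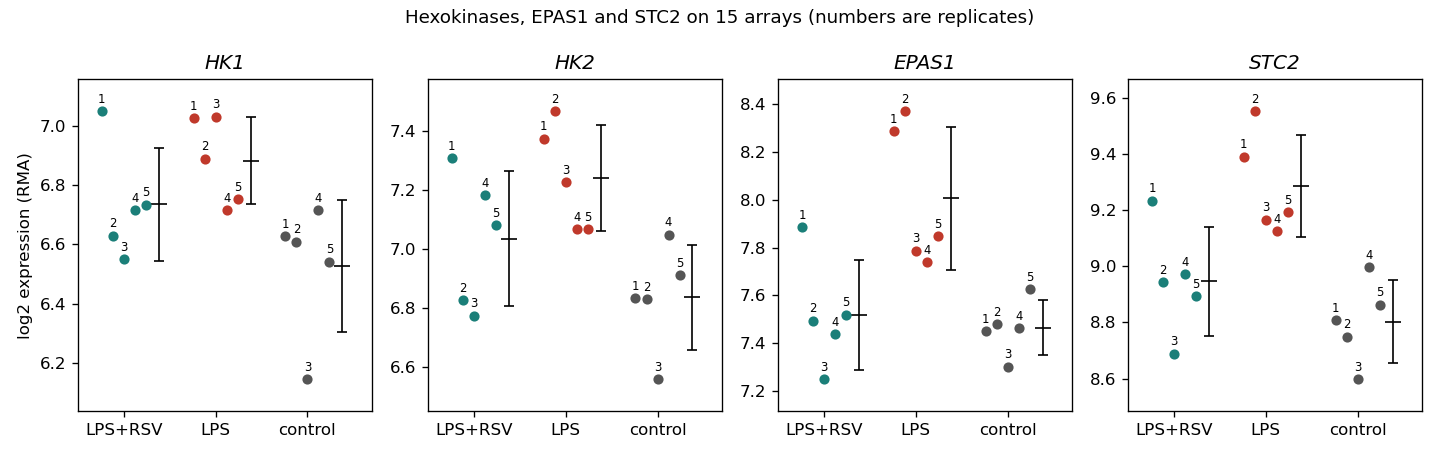
Log2 expression of HK1, HK2, EPAS1 and STC2 on each array, by group; points are arrays labelled with their replicate number and the bars beside them show mean and SD (n = 5). For EPAS1, LPS replicates 1 and 2 are at 8.29 and 8.37, above the other LPS arrays at 7.74 to 7.85, and the LPS+RSV mean of 7.52 is close to the control mean of 7.46.

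In LPS+RSV against LPS, the comparison asks how cells given endotoxin differed when resveratrol had come first. The log2 difference of EPAS1 was -0.49 ± 0.13 (SE, 95% confidence interval -0.77 to -0.21, limma adjusted p = 0.127 over all genes), a fold of 0.712. For STC2 it was -0.34 ± 0.11 (interval -0.57 to -0.11, limma adjusted p = 0.153), a fold of 0.79. The hexokinase differences were smaller against their error, at -0.21 ± 0.12 for HK2 (interval -0.45 to 0.04, limma adjusted p = 0.36) and -0.15 ± 0.11 for HK1 (interval -0.39 to 0.09, limma adjusted p = 0.503). Of the 11804 genes 0.0424% were called at an adjusted p under 0.05, and 0 of these 4 genes were; the 5 called were NOX1, ETV4, KRT18 and TOP1, lower, and CLYBL, higher. At an unadjusted p under 0.05, EPAS1 and STC2 were lower, 2 of 4, where 10.5% of all genes were. This comparison uses the same 5 LPS arrays in which the genes had been found high, so it is not independent of how they were chosen. Without LPS+RSV replicate 1 the differences were -0.58 ± 0.13 for EPAS1, -0.41 ± 0.10 for STC2, -0.27 ± 0.12 for HK2 and -0.23 ± 0.11 for HK1, with limma adjusted p = 0.102 for EPAS1 the lowest.

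In LPS+RSV against control, the endotoxin and resveratrol together were set against no treatment. The log2 difference was 0.21 ± 0.11 for HK1 and 0.20 ± 0.12 for HK2, with 95% intervals of -0.03 to 0.45 for HK1 and -0.05 to 0.45 for HK2 (limma adjusted p = 0.492 for HK1 and 0.513 for HK2). STC2 differed by 0.14 ± 0.11 (interval -0.08 to 0.37) and EPAS1 by 0.05 ± 0.13 (interval -0.23 to 0.34), with limma adjusted p = 0.593 for STC2 and 0.878 for EPAS1. Limma called 0 genes in this comparison, 0% of 11804, with 1239 at an unadjusted p under 0.05 (10.5%), which included 0 of these 4. The intervals reach 1.36-fold over control for HK1 and HK2. The control arrays are those of the choosing comparison. Without LPS+RSV replicate 1, the highest array of its group for all 4 genes, EPAS1 differed by -0.039 ± 0.13, HK1 by 0.13 ± 0.11, HK2 by 0.13 ± 0.12 and STC2 by 0.07 ± 0.10.

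The LPS against control differences, which chose the genes, were 0.54 ± 0.13 for EPAS1, 0.48 ± 0.11 for STC2, 0.40 ± 0.12 for HK2 and 0.35 ± 0.11 for HK1 (log2, SE). A larger difference was seen in 111 genes for EPAS1, 140 for STC2, 215 for HK2 and 277 for HK1. The groups did not overlap for 3 of the 4 genes, and for 1.08% of all genes in this direction. Limma called 0.0254% of genes in this comparison, the 3 being NOX1, ETV4 and KRT18, all higher in LPS.

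LPS replicates 1 and 2 carried a large part of these differences for EPAS1, STC2 and HK2, and less for HK1. Their mean exceeded the control mean by 0.87 for EPAS1, against 0.33 for the mean of LPS replicates 3 to 5. The same values were 0.67 and 0.36 for STC2, 0.58 and 0.28 for HK2, and 0.43 and 0.30 for HK1. Without control replicate 3 alone, HK1 differed by 0.26 ± 0.10 in LPS minus control and 0.11 ± 0.10 in LPS+RSV minus control. Refitted without LPS replicates 1 and 2, LPS minus control was 0.33 ± 0.12 for EPAS1, 0.36 ± 0.11 for STC2, 0.28 ± 0.13 for HK2 and 0.30 ± 0.14 for HK1 (SE). LPS+RSV minus LPS then shrank to -0.27 ± 0.12 for EPAS1, -0.22 ± 0.11 for STC2, -0.08 ± 0.13 for HK2 and -0.10 ± 0.14 for HK1, with limma adjusted p = 0.363 for EPAS1, 0.397 for STC2, 0.783 for HK2 and 0.758 for HK1. The median difference of the 4 genes was -0.27 with all arrays and -0.16 without those 2 arrays. The cell cycle scores of LPS replicates 1 and 2 were 0.19 and 0.15, while LPS replicates 4 and 5 had the highest scores of all arrays at 0.90 and 1.04. With that score as a covariate, LPS+RSV minus LPS was -0.61 ± 0.15 for EPAS1, -0.42 ± 0.12 for STC2, -0.35 ± 0.12 for HK2 and -0.22 ± 0.13 for HK1, and none of these 4 was called (lowest limma adjusted p = 0.12). The score itself differed between LPS+RSV and LPS, so these adjusted values cannot separate it from treatment. KRT20 was also highest in LPS and there smaller without replicates 1 and 2, as given above. The part of the cell cycle genes or of KRT20-expressing cells in the differences of the 4 genes was not tested, and fewer cells of a kind cannot be told apart from less RNA per cell in bulk arrays.

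**Figure D2:**
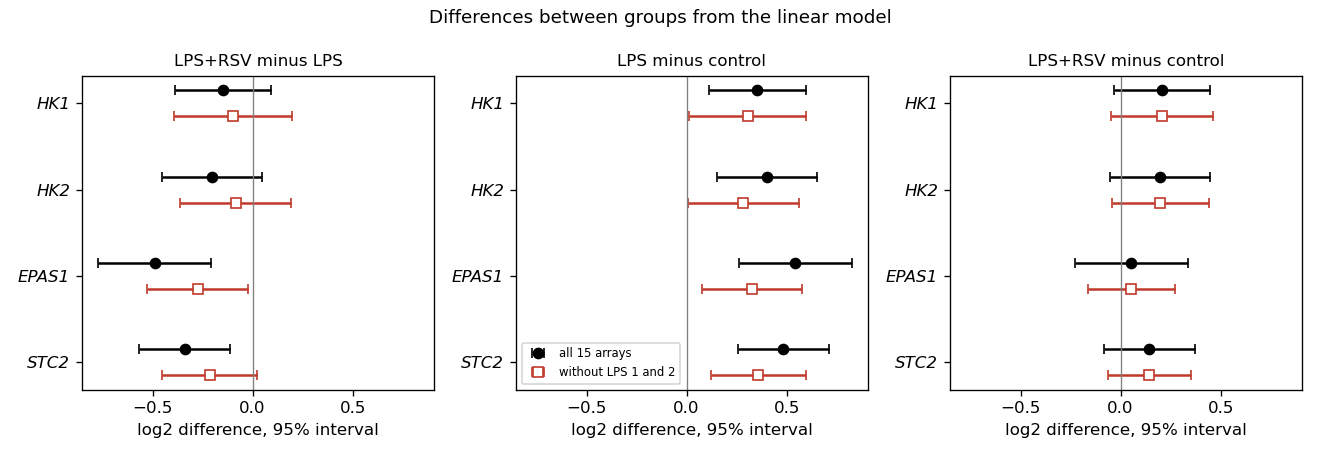
Log2 differences of the 4 genes between groups with 95% confidence intervals from the linear model; filled circles use all 15 arrays and open squares leave out LPS replicates 1 and 2. In LPS+RSV minus LPS the EPAS1 difference is -0.49 with all arrays and -0.27 without the pair, and in LPS+RSV minus control all intervals span 0.

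Within groups the 4 genes varied together, HK1 and EPAS1 least. The same array was lowest for all 4 genes in each group: LPS+RSV replicate 3, LPS replicate 4 and control replicate 3. LPS+RSV replicate 1 was highest of its group for all 4. After each group was centred on its mean, HK2 and STC2 had the closest relation over the 15 arrays. Pearson's r was 0.892 (permutation p = 3e-05, 0.0003 after adjustment) and Spearman's rho was 0.921 (permutation p = 3e-05, 0.0003 after adjustment), and r was 0.827 without the 2 arrays farthest out in HK2, LPS+RSV replicate 1 and control replicate 3. EPAS1 and STC2 followed, with r = 0.885 (permutation p = 0.0004, 0.002 after adjustment), rho = 0.864 (permutation p = 0.00095, 0.00475 after adjustment) and r = 0.757 without LPS+RSV replicate 1 and LPS replicate 2. For the hexokinases r was 0.824 (permutation p = 0.00069, 0.0023 after adjustment) and rho was 0.729 (permutation p = 0.00436, 0.0109 after adjustment), with r = 0.696 without control replicate 3 and LPS+RSV replicate 1.

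HK2 and EPAS1 had r = 0.775 (permutation p = 0.00154, 0.00385 after adjustment) and rho = 0.793 (permutation p = 0.00172, 0.00573 after adjustment), and r was 0.690 without LPS+RSV replicate 1 and control replicate 3. HK1 and STC2 had r = 0.721 (permutation p = 0.0066, 0.0132 after adjustment) and rho = 0.696 (permutation p = 0.0103, 0.0207 after adjustment), and r fell to 0.470 without the same 2 arrays. HK1 and EPAS1 were the least related pair, with r = 0.596 (permutation p = 0.0192, 0.032 after adjustment) and rho = 0.632 (permutation p = 0.0197, 0.0329 after adjustment). Without those 2 arrays, the farthest out in HK1, r was 0.378. Leaving out extreme arrays can itself lower r, so this does not show that the relation rested on them. Without LPS replicates 1 and 2, the 6 pairs had r between 0.707 and 0.876. With only LPS+RSV replicate 1 left out, r lay between 0.440 for HK1 and EPAS1 and 0.864 for HK2 and STC2. The permutations shuffled each group separately, so deviations shared by same-numbered arrays of different groups could make these p-values too small. With 100000 resamples they covered 10 relations, and the other 4 set each gene against the cell cycle score. Those had r of -0.532 for HK2 (permutation p = 0.0595, 0.0851 after adjustment) with rho = -0.511 (permutation p = 0.0723, 0.103 after adjustment), and r between -0.376 and -0.296 for the other 3 genes, and none passed.

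Many other genes also moved between arrays of the same group. With group means removed, the leading principal component held 45.4% of the remaining variance, and its r was 0.671 with HK2, 0.535 with STC2, 0.533 with EPAS1 and 0.469 with HK1. Closeness to each gene was then ranked by r among the 11803 other genes, and it differed widely between pairs. For STC2, 4 genes were closer than HK2, 8 closer than EPAS1 and 205 closer than HK1. For HK2, 10 were closer than STC2, 61 closer than HK1 and 168 closer than EPAS1. For EPAS1, 13 were closer than STC2, 163 closer than HK2 and 884 closer than HK1. HK1 had 18 genes closer than HK2, 111 closer than STC2 and 518 closer than EPAS1, so its place beside EPAS1 was shared with many genes. With these 4 genes left out of the ranking, the 5 genes most like HK2 were PGM1 (r = 0.935), which encodes the phosphoglucomutase that links glucose 6-phosphate to glycogen, DLC1 (0.925), GPI (0.913), ITLN1 (0.906) and UNC13B (0.905). GPI encodes the isomerase that takes glucose 6-phosphate into glycolysis, and it was also among the 5 genes most like HK1, which were PRDX6 (r = 0.901), GPI (0.894), CYREN (0.887), F2 (0.873) and PWWP2B (0.873). COX4I1, which encodes a subunit of cytochrome c oxidase, was, outside the 4 genes, among the 5 most like EPAS1 (r = 0.923) and the 5 most like STC2 (0.891). The others were ARHGAP27 (0.938), DUSP5 (0.918), ELOVL1 (0.907) and ETHE1 (0.903) for EPAS1, and GSK3A (0.927), ZPR1 (0.919), CRKL (0.897) and FZD5 (0.893) for STC2. The median r over all genes was between 0.03 and 0.06. These are the highest of many correlations over 15 arrays with group means removed, so they are given without a p. Likeness within groups does not speak to differences between groups. In LPS minus control the 5 genes most like HK2 differed by -0.06 (PGM1), 0.22 (DLC1), 0.04 (GPI), 0.13 (ITLN1) and -0.22 (UNC13B).

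**Figure D3:**
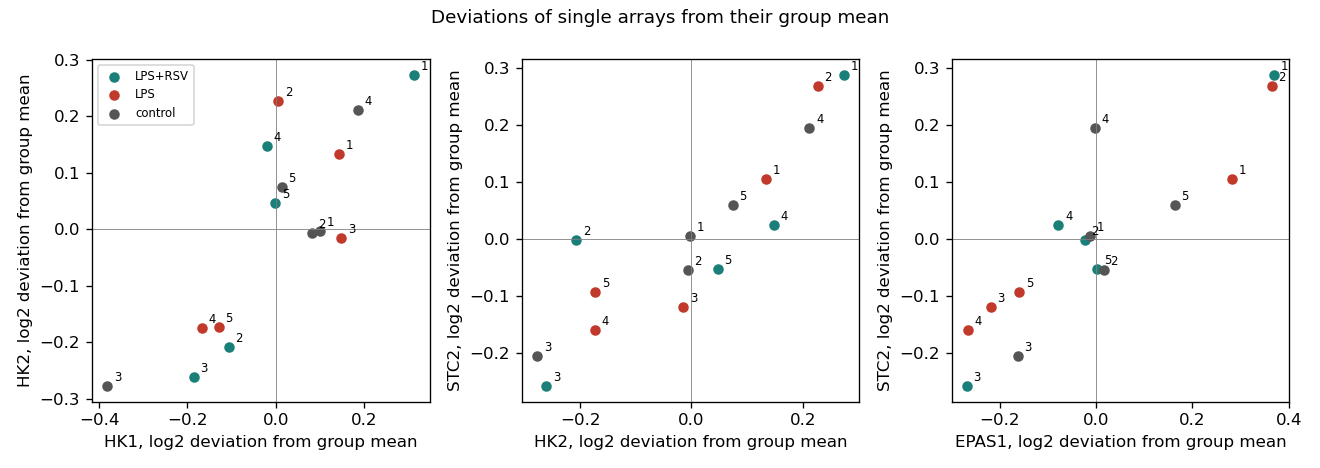
Deviation of each array from its group mean (log2) for 3 pairs of genes; colours are groups and numbers are replicates. HK2 and STC2 lie closest to a line (r = 0.892), with LPS+RSV replicate 1 at the upper end and replicate 3 of LPS+RSV and of control at the lower end.

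Of the other glucose-phosphorylating enzymes, HKDC1, a hexokinase family member that lies next to HK1 in the genome, differed more than either hexokinase described. It read 7.88, 7.46, 7.43, 7.67 and 7.81 in LPS+RSV, 9.06, 9.21, 7.98, 8.25 and 8.07 in LPS and 7.67, 7.65, 7.19, 7.60 and 7.54 in control, replicates 1 to 5. Every LPS array was above every array of the other groups; 1.39% of all genes were lower without overlap in LPS+RSV than in LPS. LPS+RSV minus LPS was -0.86 ± 0.21 (SE, limma adjusted p = 0.104), and LPS minus control was 0.98 ± 0.21 (limma adjusted p = 0.197), so neither passed. LPS replicates 1 and 2 were again the highest, and without them the differences were -0.45 ± 0.13 in LPS+RSV minus LPS and 0.57 ± 0.13 in LPS minus control. HK3 lay near the filter at 5.01 ± 0.14 in LPS+RSV, 4.97 ± 0.09 in LPS and 5.03 ± 0.17 in control (SD, n = 5 each). All 5 glucose transporters of the list had no probe set named here. Of the mitochondrial channels that dock hexokinase, VDAC1 differed by -0.24 ± 0.09 in LPS+RSV minus LPS (limma adjusted p = 0.189) and by 0.25 ± 0.09 in LPS minus control (limma adjusted p = 0.523). Without LPS replicates 1 and 2 it differed by -0.13 ± 0.09 in LPS+RSV minus LPS and 0.13 ± 0.09 in LPS minus control. In LPS+RSV minus LPS 2 of the 3 channels tested were higher (median 0.01, highest VDAC2 at 0.02). In LPS minus control the median was 0.05, with VDAC3 lowest at -0.04.

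**Figure D4:**
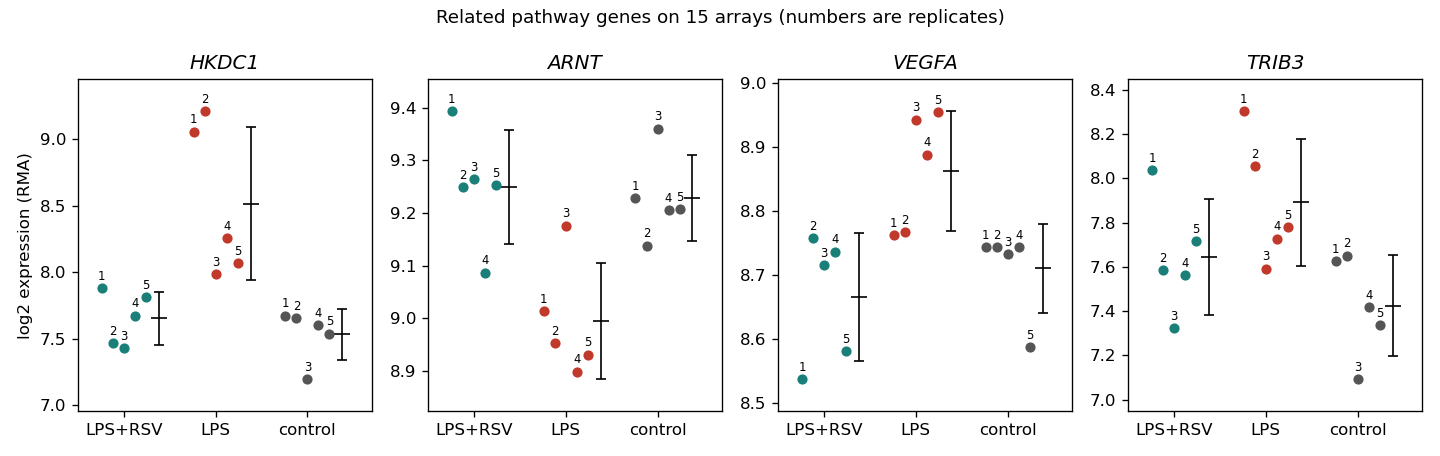
Log2 expression of HKDC1, ARNT, VEGFA and TRIB3 on each array by group, with mean and SD bars (n = 5). HKDC1 is at 7.43 to 7.88 in LPS+RSV, 7.98 to 9.21 in LPS and 7.19 to 7.67 in control, and ARNT has a lower mean in LPS (8.99) than in LPS+RSV (9.25) or control (9.23). This set was picked for plotting after the values were seen.

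Downstream of hexokinase, 7 of 19 glycolysis genes had a tested probe set. Between LPS+RSV and LPS 4 were higher and 3 lower in LPS+RSV, with a median log2 difference of 0.03, where the median of all genes was 0.01. In LPS against control 6 were higher and 1 lower, with a median of 0.12, and 0 of 7 passed limma in either comparison or had an unadjusted p under 0.05, where 18.6% of all genes had one in LPS+RSV against LPS and 7.88% in LPS against control. LDHA, which encodes a lactate dehydrogenase subunit, differed by -0.14 ± 0.12 in LPS+RSV minus LPS and 0.25 ± 0.12 in LPS minus control, and GPI by 0.17 ± 0.14 in LPS+RSV minus LPS and 0.04 ± 0.14 in LPS minus control (SE). Without LPS replicates 1 and 2, LDHA differed by -0.03 ± 0.14 in LPS+RSV minus LPS and 0.14 ± 0.14 in LPS minus control. The glycolysis median was then 0.11 in LPS+RSV minus LPS and 0.13 in LPS minus control. For the 11 tested genes of other glucose 6-phosphate fates the median was -0.02 in LPS+RSV minus LPS and 0.03 in LPS minus control. In limma 0 passed, with 3 at an unadjusted p under 0.05 in LPS+RSV against LPS, PGLS higher and UGP2 and GFPT1 lower, and 0 in LPS against control.

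Around EPAS1, its partner ARNT ran opposite to it. ARNT was at 9.25 ± 0.11 in LPS+RSV, 8.99 ± 0.11 in LPS and 9.23 ± 0.08 in control (SD, n = 5 each). Its difference was 0.25 ± 0.07 in LPS+RSV minus LPS (limma adjusted p = 0.129) and -0.23 ± 0.07 in LPS minus control (limma adjusted p = 0.356), so it did not pass, and without LPS replicates 1 and 2 these were 0.25 ± 0.09 in LPS+RSV minus LPS and -0.23 ± 0.09 in LPS minus control. EGLN1, a prolyl hydroxylase that marks HIF subunits for degradation, differed by -0.13 ± 0.13 in LPS+RSV minus LPS and 0.15 ± 0.13 in LPS minus control, EGLN3 lay below the filter, and HIF1A and VHL had no probe set named here. Without LPS replicates 1 and 2, EGLN1 differed by 0.02 ± 0.13 in LPS+RSV minus LPS and -0.003 ± 0.13 in LPS minus control. Of 5 tested genes of HIF subunits and oxygen sensing, 1 was higher and 4 were lower in each of these comparisons, with 0 passing limma and ARNT alone, 1 of 5, at an unadjusted p under 0.05 in each. Of all genes, 18.6% had one in LPS+RSV against LPS, near the share in this list, and 7.88% in LPS against control.

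Among 9 tested HIF target genes, 2 were higher and 7 lower in LPS+RSV than in LPS (median -0.07), and 7 were higher and 2 lower in LPS than in control (median 0.14). Without LPS replicates 1 and 2 the medians were -0.04 in LPS+RSV minus LPS and 0.05 in LPS minus control. In limma 0 passed, and 1 of 9, VEGFA, had an unadjusted p under 0.05 in each comparison, where 18.6% of all genes had one in LPS+RSV against LPS and 7.88% in LPS against control. VEGFA, the angiogenic growth factor gene, was at 8.67 ± 0.10 in LPS+RSV, 8.86 ± 0.09 in LPS and 8.71 ± 0.07 in control (SD, n = 5 each), with every LPS array above those of the other groups, as for 1.39% of all genes in LPS+RSV against LPS (lower) and 1.08% in LPS against control (higher). The margin was narrow: the lowest LPS array was at 8.762, and the highest arrays were at 8.757 in LPS+RSV and 8.744 in control. The log2 difference of VEGFA was -0.20 ± 0.07 in LPS+RSV minus LPS (limma adjusted p = 0.167) and 0.15 ± 0.07 in LPS minus control (limma adjusted p = 0.591). Unlike for HK2, EPAS1 and STC2, LPS replicates 1 and 2 were its lowest LPS arrays, and without them the differences were -0.26 ± 0.07 in LPS+RSV minus LPS and 0.22 ± 0.07 in LPS minus control. NDRG1, another hypoxia-induced gene, differed by 0.16 ± 0.16 in LPS+RSV minus LPS and -0.07 ± 0.16 in LPS minus control. Of the iron absorption genes that HIF-2 controls, CYBRD1, the brush border ferric reductase gene, differed by -0.10 ± 0.13 in LPS+RSV minus LPS and -0.02 ± 0.13 in LPS minus control. HEPH, the other tested gene of that list, differed by 0.27 in LPS+RSV minus LPS and -0.14 in LPS minus control, and limma did not call it.

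Around STC2, 14 of 21 ATF4 and unfolded protein response genes were tested. In LPS+RSV against LPS 3 were higher and 11 lower (median -0.11), and in LPS against control 11 were higher and 3 lower (median 0.10), with 0 passing limma in either. At an unadjusted p under 0.05, SESN2 was higher and ERN1 and EIF2AK3 lower, 3 of 14, in LPS+RSV minus LPS, and TRIB3 and ERN1, 2 of 14, were higher in LPS minus control. The shares over all genes were 18.6% in LPS+RSV against LPS, about that of the list, and 7.88% in LPS against control. TRIB3, a pseudokinase gene induced by ATF4 and DDIT3, differed by -0.25 ± 0.15 in LPS+RSV minus LPS (limma adjusted p = 0.387) and 0.47 ± 0.15 in LPS minus control (limma adjusted p = 0.37). Without LPS replicates 1 and 2 it differed by -0.05 ± 0.15 in LPS+RSV minus LPS and 0.27 ± 0.15 in LPS minus control. ATF4 itself differed by -0.11 ± 0.08 in LPS+RSV minus LPS and 0.09 ± 0.08 in LPS minus control. DDIT3, which encodes the stress factor CHOP, differed by -0.11 ± 0.08 and ASNS, asparagine synthetase, by -0.30 ± 0.28 in LPS+RSV minus LPS; in LPS minus control the values were 0.06 ± 0.08 for DDIT3 and 0.25 ± 0.28 for ASNS. The paralogue STC1 differed by -0.23 ± 0.14 in LPS+RSV minus LPS and 0.34 ± 0.14 in LPS minus control, and IGFBP4, the binding protein that PAPP-A cleaves, by -0.01 ± 0.09 in LPS+RSV minus LPS and 0.10 ± 0.09 in LPS minus control.

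The median over all genes was 0.02 in LPS+RSV minus control. In that comparison the median log2 difference was 0.14 for the glycolysis list, with 6 of 7 higher, 0.04 for the HIF targets, with 6 of 9 higher, and -0.01 for the ATF4 list, with 7 of 14 higher. In limma 0 genes passed in any list, and among these 3 lists only SESN2 of the ATF4 list had an unadjusted p under 0.05 (log2 difference 0.33), where 10.5% of all genes had one. HKDC1 differed by 0.12 ± 0.21, ARNT by 0.02 ± 0.07, VEGFA by -0.04 ± 0.07 and TRIB3 by 0.22 ± 0.15 (SE).

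**Figure D5:**
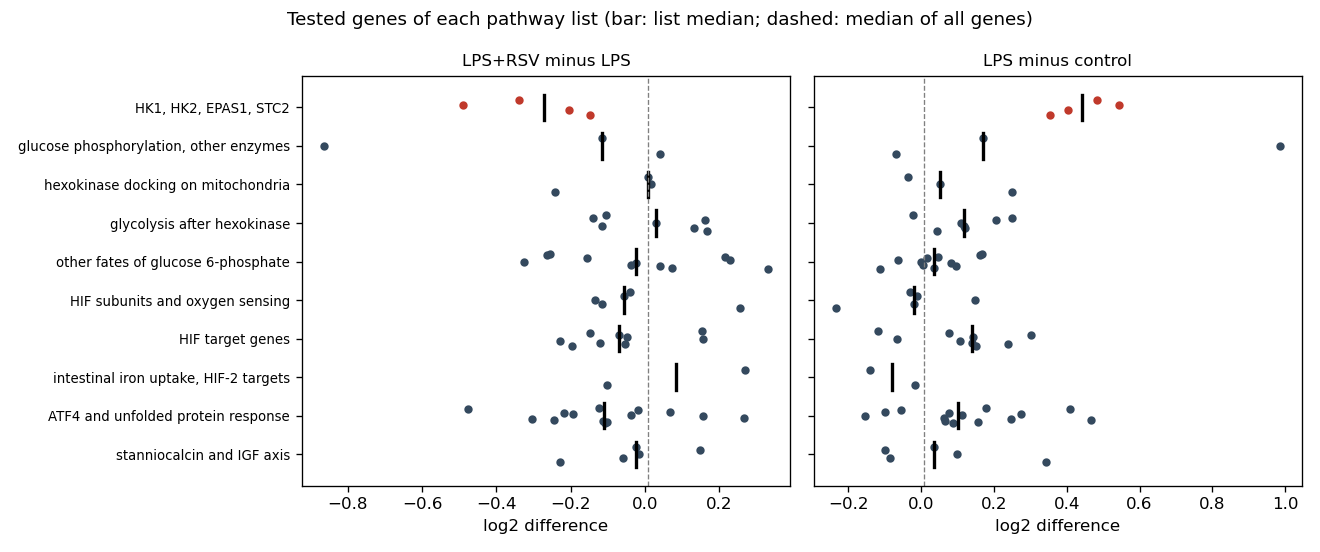
Log2 differences of every tested gene of each pathway list (points) with the list median (bar); the dashed line is the median of all 11804 genes. In LPS+RSV minus LPS the 4 genes have a median of -0.27, the ATF4 list -0.11 and the glycolysis list 0.03; in LPS minus control the medians are 0.44 for the 4 genes, 0.10 for the ATF4 list and 0.12 for the glycolysis list. The 4 genes were chosen for the LPS minus control values. LPS+RSV minus LPS uses the same LPS arrays, so neither median of the 4 genes is independent of that choice.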

How the data were processed

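Whole-transcript expression was measured on 15 Affymetrix arrays of Caco-2 cells. The authors deposited log2 values, a single value for each probe set on each array, from RMA per the submitters' processing notes (a method that subtracts background, equalizes the arrays' distributions and sums up probes); its version and the annotation build were not given in the sources used here. RMA values of dim probe sets are compressed, which shrinks differences. In 32.5% of kept genes at least 2 arrays had identical values.

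Of 53617 rows, 16098 had 1 symbol in the platform annotation, which can be old, 0 had several and 37519 were unnamed here. Each of the 14884 symbols was represented by its brightest row; HK1, HK2, EPAS1 and STC2 had 1 row each. Genes above the 40th percentile of an array in at least 5 of 15 arrays were kept (11804). Limma 3.58.1 in R 4.3.3 was fitted to all 15 arrays with 3 group means (lmFit, eBayes), and a gene counted as called where its p, adjusted by Benjamini-Hochberg across the kept genes, was under 0.05. The scripts were tested on simulated data.

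The 4 genes and all lists were chosen with earlier results of these data known. Genes named were these 4, a list of related genes given whatever their values (those with no row are counted), and the 5 genes outside these 4 with the highest group-centred correlation with each; the few others were named after their values were seen. Replicate numbers were not used to pair the arrays in the main fit. Same-numbered deviations correlated between -0.541 and 0.707, and most of these values were negative, with few over 0.1. Between LPS+RSV and control the values were -0.441, 0.707, 0.062, 0.101 and 0.427 for replicates 1 to 5. Cell cycle scores of those groups were close in replicates 2 to 5 and apart in replicate 1 (-0.51 in LPS+RSV, 0.48 in control). A pairing of LPS+RSV with control by number stays unsettled. Permutations used NumPy 2.4.6, and the number of arrays limits precision. Alternatives covered the filter, rows per symbol, normalization, moderation, array weights, samples in the fit, replicate block, cell cycle score and left-out arrays.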

Additional observations from a re-analysis of the deposited data

Results flagged for a closer look

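None of HK1, HK2, EPAS1 and STC2 had an array that stood apart from its group in a Dixon test at the 95% level. Among the other named genes, 4 of 60 groups of 5 arrays checked, these 4 genes included, had such an array, where chance gives about 1 in 20. All 4 were control arrays. HKDC1 was lowest in control replicate 3 at 7.19, next to 7.54, the array in which HK1, HK2, EPAS1 and STC2 were also lowest of the control group. VEGFA was lowest in control replicate 5 at 8.59, next to 8.73, and control replicates 1, 2 and 4 had the same value of 8.74. CYBRD1 was highest in control replicate 3 at 6.80, next to 6.54. IGFBP4 was lowest in control replicate 2 at 6.92, next to 7.13.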

How the results depend on the processing

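For HK1, HK2, EPAS1 and STC2, no alternative called any of them in LPS+RSV against LPS or against control, with the lowest limma adjusted p = 0.0685, for EPAS1 against LPS with array weights. In LPS minus control all 4 stayed higher in LPS under every alternative. The direction of EPAS1 in LPS+RSV minus control turned, to -0.0154 with array weights and to -0.039 without LPS+RSV replicate 1, and with each array left out it lay between -0.039 and 0.12. Leaving out each array in turn gave LPS+RSV minus LPS between -0.58 and -0.40 for EPAS1, -0.41 and -0.27 for STC2, -0.27 and -0.14 for HK2, and -0.23 and -0.10 for HK1. With the replicate block, EPAS1 had an adjusted p = 0.122 in LPS+RSV against LPS (limma), and the block called 6 genes in LPS against control, while 3 were called for LPS+RSV against LPS; it changed no call of the 4 genes. Counts of called genes moved more. In LPS against control 3 genes were called, against 8 with every named row, 1 with median centring, 15 with array weights, 0 with only the 2 groups compared, 62 with the cell cycle score as covariate, 8 with LPS+RSV replicate 1 left out, and 1 to 10 with each array left out. In LPS+RSV against LPS 5 were called, against 9 with the stricter filter, 20 with every named row, 22 with repeated quantile normalization, 14 with cyclic loess, 25 with array weights, 0 with only the 2 groups compared, 20 with the cell cycle score, 1 without LPS replicates 1 and 2, 1 with LPS+RSV replicate 1 left out, and 1 to 121 with each array left out; the highest, 121 and 102, were without LPS+RSV replicate 2 and LPS replicate 3. In LPS+RSV against control all alternatives called 0 in limma. The cause of these moves was not tested.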
